A study of Mus musculus with 22 samples.

Results

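The cytosolic ribosomal protein genes encode the proteins of the ribosome's large (Rpl, Rplp) and small (Rps, Rpsa) subunits. They were taken by gene name from a table of TPM values, transcript abundances scaled for transcript length and for the library total: symbols of the form Rpl or Rps with a number, together with Rplp0, Rplp1, Rplp2 and Rpsa, pseudogene names left out, and a mean of at least 1 TPM over 22 libraries. Of 55415 lines in the table, 89 names matched and 81 reached that mean, 48 of the large and 33 of the small subunit. Rps3a2 (mean 1.40 TPM) and Rpl7l1 (89.1 TPM) were the lowest 2 inside the limit. Rps3a3 (0.650 TPM) and Rpl6l (0.615 TPM) were the highest 2 outside it. Of the other 6 names below the limit, Rpl32l had a mean of 0.487 TPM, Rpl3l, Rpl10l, Rpl39l and Rps4l had means of at most 0.0509 TPM, and Rps12l1 was listed at 0 in every library.

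The libraries came from mpkCCD cells, a mouse cortical collecting duct line (mpkCCDc11, secondary clone 38) grown on transwell filters. All groups shared a serum-free and growth-factor-free medium with dexamethasone, selenite and transferrin. Wild-type (WT) cells were left without dDAVP, a vasopressin analogue that acts on the V2 receptor (n = 3), or given dDAVP (n = 3). The other 16 libraries came from 4 clones of these cells with a GFP reporter, named C1, C11, C43 and, last, C50. All had dDAVP, and each clone was divided by GFP into negative and positive cells (n = 2 for each fraction of each clone). The labels list several dDAVP doses and durations without tying them to libraries, do not describe the reporter construct, and do not say whether replicates were separate cultures, so p-values measure the spread between these libraries, which may be technical. Each reporter line is 1 clone, so what is common to a clone cannot be told apart from its reporter.

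Each ribosome holds these proteins in near equal numbers, and free ribosomal proteins are unstable, so cells coordinate the supply of their mRNAs. Many of these mRNAs begin with a run of pyrimidines at the cap, the 5′ terminal oligopyrimidine (TOP) tract, through which mTORC1 and Larp1 adjust their translation and stability. Transcription of ribosomal RNA, MYC factors and nucleolar assembly factors act upstream of the same supply. Some ribosomal proteins also have duties outside the ribosome: Rpl5 and Rpl11, carried with the 5S ribosomal RNA, can bind Mdm2 and so restrain the degradation of p53.

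As checks of the labels, Aqp2, the vasopressin-regulated water channel, was 69.1 ± 5.43 TPM (SD, n = 3) in WT cells without dDAVP and 2868 ± 139 TPM with it, and GFP was at most 0.790 TPM in WT libraries. GFP was 5.31 to 17.6 TPM in the 8 GFP-negative libraries and 1065 to 1567 TPM in the 8 GFP-positive ones. Collecting duct and epithelial markers were present (Avpr2, the V2 receptor, at a mean of 245 TPM and Epcam at 565 TPM). Of 9 principal cell markers tested, 6 were higher and 1 lower in GFP-positive cells by the limma test described below, and the part of that difference in the results below was not tested. Slc12a3, Umod, Col1a1, Ptprc and Pecam1, markers of other tubule segments, fibroblasts, leukocytes and endothelium, each averaged under 1 TPM. Of 5 intercalated cell, 4 proximal tubule and 4 leukocyte markers, 1 in each list averaged at least 1 TPM. These lists summed to at most 110, 16.1 and 12.95 TPM in any library. The 1 intercalated cell and 1 proximal tubule marker tested were called higher in GFP-positive cells. The number of genes with a TPM above 0 fell into 2 ranges, 17177 to 20250 in 10 libraries and 23135 to 31292 in 12. Both GFP-negative libraries of C1 were in the lower range and both of C11 in the upper, and every other group had libraries in both. Read depth per library is unknown, since the table gives no counts.

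To show where these genes start, 50-base windows around the annotated start site, 25 bases on each side, were taken from RefSeq promoters (GRCm38.p6) for the 5 genes with the largest falls in the GFP comparison and for 2 pairs of paralogs. Of the 81 genes, 60 had a promoter in that table. Capitals mark every run of at least 8 C or T bases.
Rplp0 (chr5:115559442-115559491, + strand): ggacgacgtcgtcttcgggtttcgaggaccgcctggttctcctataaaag
Rpl5 (chr5:107900503-107900552, + strand): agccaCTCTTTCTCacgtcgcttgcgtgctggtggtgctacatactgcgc
Rpl6 (chr5:121204476-121204525, + strand): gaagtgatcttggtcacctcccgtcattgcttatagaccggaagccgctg
Rpl38 (chr11:114668555-114668604, + strand): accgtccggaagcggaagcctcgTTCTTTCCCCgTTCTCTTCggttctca
Rps27l (chr9:66946061-66946110, + strand): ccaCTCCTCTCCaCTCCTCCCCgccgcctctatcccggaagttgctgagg
Rps27 (chr3:90213624-90213673, - strand): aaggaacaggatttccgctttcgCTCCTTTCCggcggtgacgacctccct
Rpl22l1 (chr3:28805483-28805532, + strand): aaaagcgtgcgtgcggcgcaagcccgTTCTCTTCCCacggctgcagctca
Rpl22 (chr4:152325701-152325750, + strand): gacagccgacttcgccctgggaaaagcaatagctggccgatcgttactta

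Within 30 bases of the annotated start, a run of at least 8 C or T bases on the gene's strand was found in 31 of the 60 promoters (51.7%), against 22.8% of 27025 promoters in the table. Runs of A or G of the same length, a comparison of base composition, were in 13.3% of the 60 and 25.2% of all. Of the printed windows, Rpl38, Rps27 and Rpl22l1 have a run at or next to the start, and Rpl38 has another just downstream. Rps27l has 2 runs upstream, the nearer ending at position -4 (the base before the start is -1), and Rpl5 has 1 ending at position -12. Rplp0, Rpl6 and Rpl22 have no such run in these windows. Over the full 300 bases, the letters CCGGAAG, a core that ETS factors bind, were on either strand of 24 of the 60 promoters (40%) and 9.12% of all. AAGATGGC, the core of the YY1 site, also on either strand, was in 8.33% and 2.88%, and TATAAA in 10% and 14.2%. These are letter matches, and annotated starts can differ from the start used in these cells.

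The 81 genes made up 3.85% to 6.12% of all TPM in 21 of the 22 libraries and 8.32% in the remaining one, GFP-negative replicate 1 of C50. WT libraries without dDAVP stood at 3.85%, 4.96% and 4.92%, and those with dDAVP at 6.12%, 4.69% and 5.58%, so these groups overlapped. In C1 the GFP-negative libraries held 4.78% and 4.30% and the GFP-positive ones 4.56% and 4.66%. In C11 the shares were 4.79% and 4.23% without GFP and 4.99% and 4.65% with it. C43 gave 5.18% and 5.34% without GFP and 5.20% and 4.87% with it. In C50, replicate 2 of the GFP-negative fraction was at 4.84%, near its GFP-positive libraries at 4.67% and 4.80%. The fractions overlapped in C1, C11 and C43, and in C50 both GFP-negative values lay above the GFP-positive ones, replicate 2 by a small margin. The large subunit took 1.26 to 1.39 times the TPM of the small subunit in every library, so the shift in C50 GFP-negative replicate 1 was shared by both subunits (4.66% and 3.66%, against 2.76% and 2.07% in replicate 2).

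**Figure D1:**
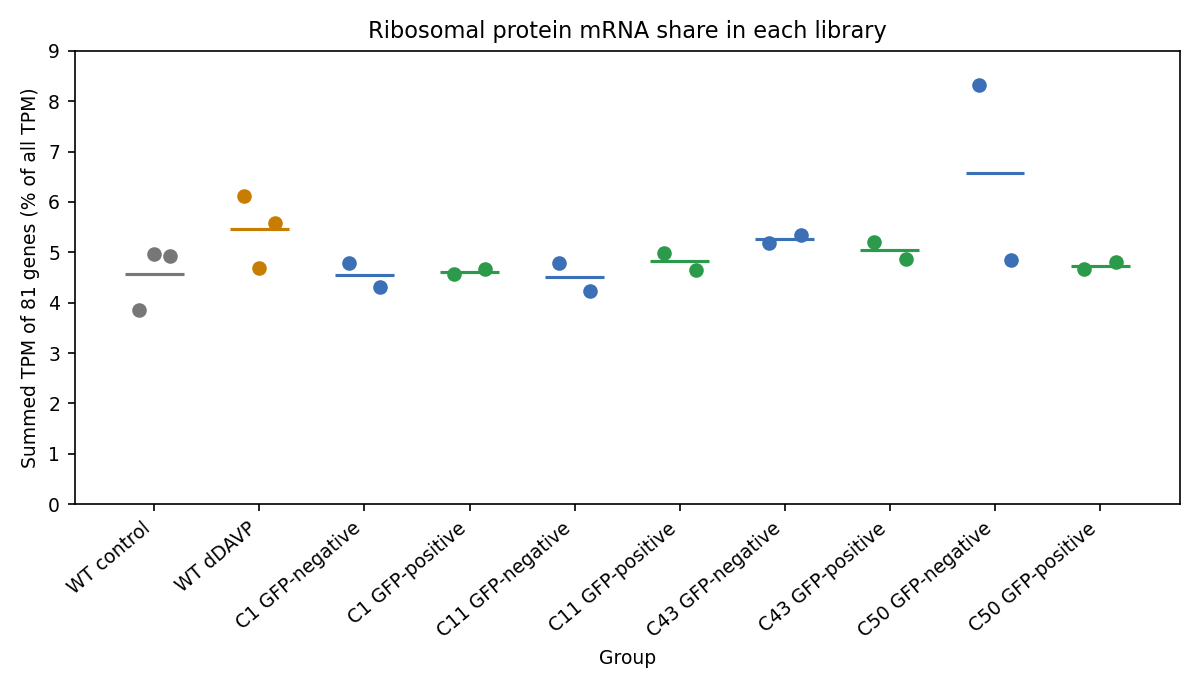
Summed TPM of the 81 ribosomal protein genes as a percent of all TPM (vertical axis, from 0) in each of 22 libraries, by group (horizontal axis). Points are libraries and bars are group means; the point at 8.32% is GFP-negative replicate 1 of C50, and the other 21 lie between 3.85% and 6.12%.

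Although their proteins are needed in near equal amounts, the mRNA levels per length spread widely. Rps27, a zinc-finger protein of the small subunit, was among the most abundant, with a mean of 2583 TPM, a lowest library of 1948, a median of 2466 and a highest of 5318 TPM. Rpl32 had a mean of 2087 TPM, Rpl41, which encodes a very short basic peptide of the large subunit, 1897 TPM, and Rps15, a protein of the small subunit's head, 1423 TPM. The 5 most abundant genes held 23.7% of the pool, and the median gene stood at 416 TPM. At the low end of the genes with a settled ribosomal role, Rpl5 averaged 94.6 TPM. The order of the 81 genes was close between libraries, with a rank correlation of 0.913 at the lowest and a median of 0.978 over all pairs of libraries, a description across genes that share each library. Leaving out C50 GFP-negative replicate 1, a gene's highest library was 1.67 times its lowest at the median (range 1.25 to 3.34).

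The submitters' notes name RSEM, but details of how it divided reads shared with near-identical copies are not given in the sources used here. Ribosomal proteins have many processed pseudogenes, and 322 lines of the table carry such names. They summed to 0.0819% to 0.127% of TPM per library, a small addition to the 81 genes. Levels of Rps3a2, nearly a copy of Rps3a1 (707 TPM), are therefore uncertain.

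In C50 GFP-negative replicate 1, 73 of the 81 genes reached their highest value of the 22 libraries, while 10.6% of all 13244 genes tested did. All 81 were above their mean over the other 21 libraries, a count not taken over all genes. Of the 81, 80 were above GFP-negative replicate 2 of the same clone, and of 12988 other genes with an annotated length, 3509 were. The 81 genes share this library, so these counts are not made of independent observations. The ratio to replicate 2 over the 81 genes had a median of 1.73 (range 0.949 to 2.70). Rps12, a small-subunit protein with the highest such ratio (named after its values were seen), was 1128 TPM there against 418 TPM in replicate 2 and 281 to 624 TPM in the other 20 libraries. The acidic stalk proteins Rplp1 and Rplp2, which recruit translation factors, were 2.57 and 2.46 times higher than in replicate 2. Among the 8 genes that did not peak there were Rps25, Rpl4, Rpl3, Rpl23a, Rpsa, Rpl7l1 and Rps3a2, named after their values were seen. The ratio to replicate 2 was 0.949 for Rpl7l1 and 1.38 for Rpl4.

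Several measures that do not use these genes moved in that library. The summed TPM of 26 other short abundant mRNAs, such as ferritin, thymosin and cytochrome oxidase subunits, was 4.32% there and 2.01% to 3.27% in the other 21. All other genes with an annotated transcript under 1000 bases took 27.6% of TPM, against 16.7% to 21.9% elsewhere, and those of 2000 bases or more took 28.0%, against 36.2% to 46.7%. The library had 17677 genes detected, near the low end. Ribosomal protein transcripts are short, with a median annotated length of 729 bases against 2431 bases for all genes with a mean of at least 1 TPM. Between the C50 GFP-negative replicates, the ribosomal protein genes under 600 bases differed by a median of 0.90 on the log2(TPM + 1) scale (30 genes). Those of 600 to under 1000 bases differed by 0.72 (33 genes), those of 1000 to under 2000 bases by 0.59 (16 genes) and those of 2000 or more by 0.87 (2 genes). Other genes differed by a median of 0.00 under 600 bases, 0.27 at 600 to under 1000, -0.06 at 1000 to under 2000 and -0.63 at 2000 or more. In each class the median of the ribosomal protein genes lay above that of the other genes, but the classes were not matched for abundance. From replicate 2 to replicate 1, the 26 other short abundant mRNAs went from 2.68% to 4.32% of TPM. The ribosomal protein genes went from 4.84% to 8.32%. Whether length, the cells or the preparation set the high share was not tested.

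**Figure D2:**
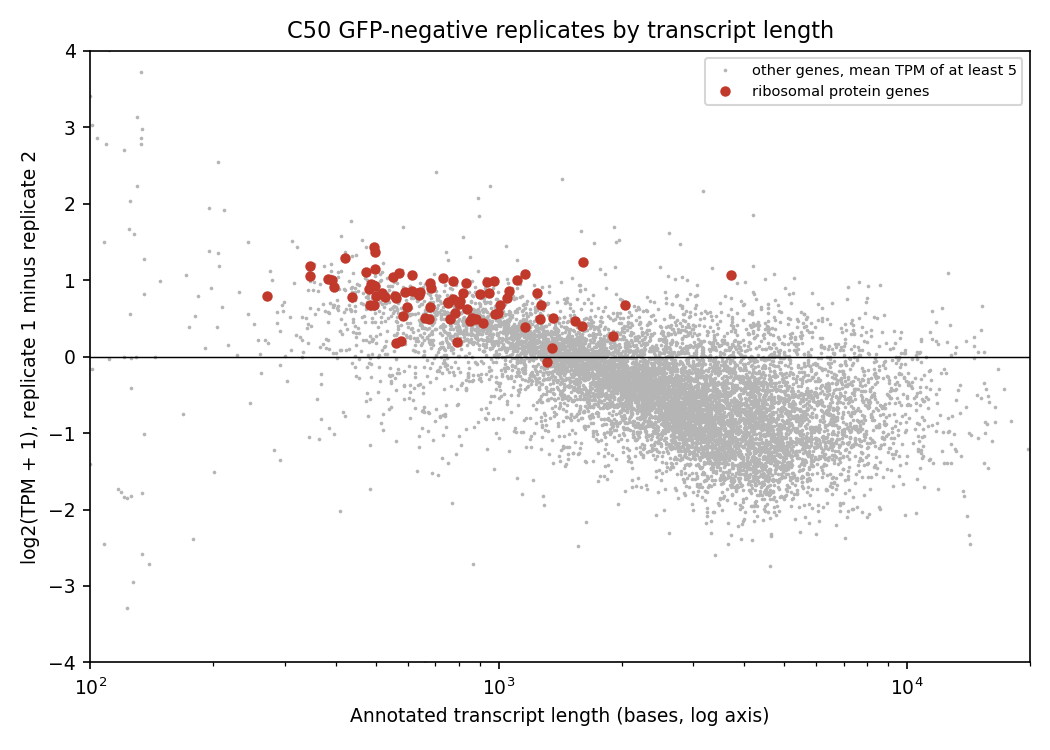
Difference between the 2 GFP-negative C50 libraries, replicate 1 minus replicate 2, in log2(TPM + 1) (vertical axis) against annotated transcript length in bases (horizontal log axis). Red points are the 81 ribosomal protein genes, 80 of them above 0; grey points are other genes with a mean of at least 5 TPM (10070 genes, 42 of them outside the plotted range), which slope downwards with length.

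WT control replicate 1 stood at the other end. In it 47 of the 81 genes had their lowest value of 22 libraries (6.20% of all genes did), 80 were below their mean over the other 21, and the genes of 2000 bases or more held 46.7% of TPM, the highest share of any library. The count below the mean was not taken over all genes. Both libraries enter the comparisons below.

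**Figure D3:**
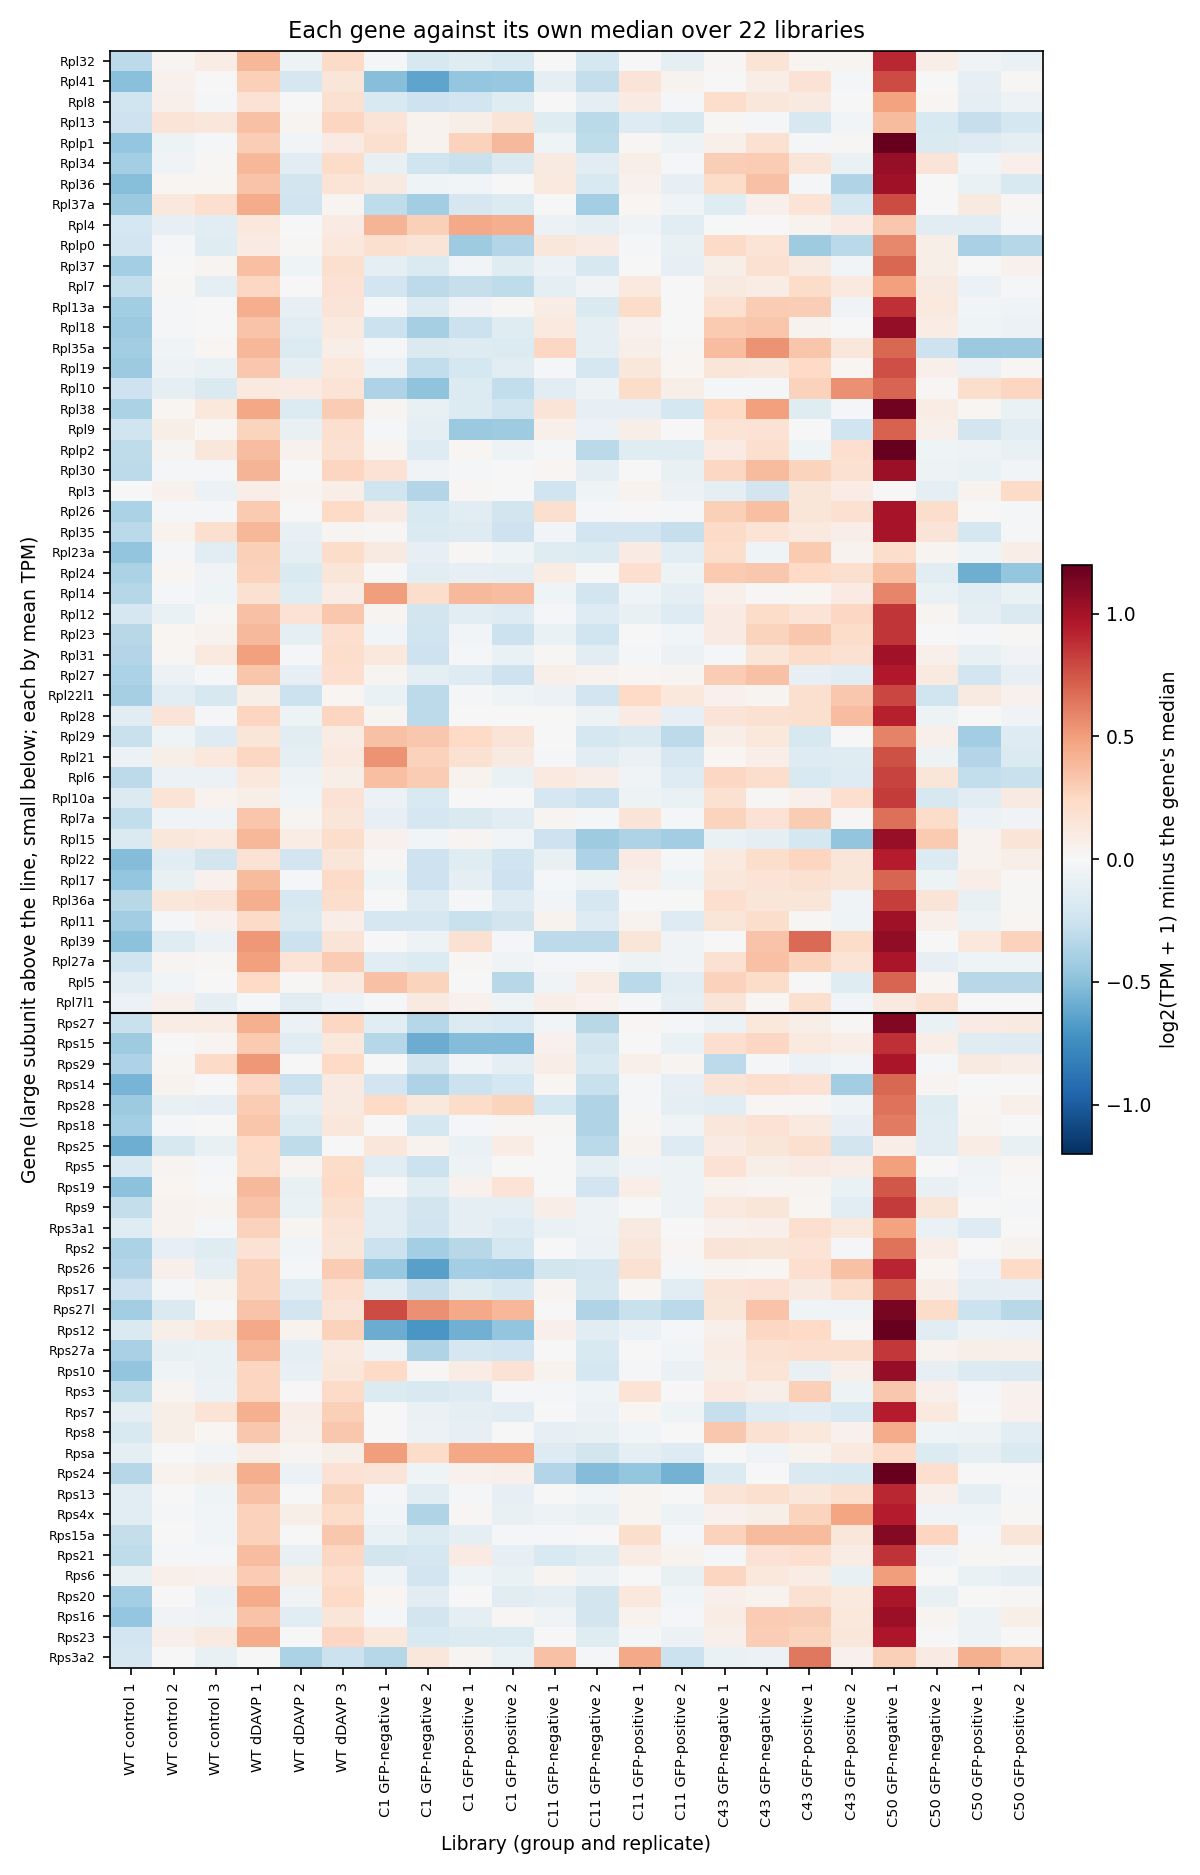
Deviation of each of 79 of the 81 genes (rows; large subunit above the line, small below, each ordered by mean TPM) from its own median over the 22 libraries (columns), as log2(TPM + 1), with colours capped at ±1.2. The column of C50 GFP-negative replicate 1 is red in nearly every row, WT control replicate 1 is mostly blue, and Rps27l, Rpsa, Rpl4, Rps12, Rps26 and Rps24 show blocks that follow clones.

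The effect of dDAVP on WT cells was small for these genes. Differences were tested with limma on log2(TPM + 1) over all genes with a mean of at least 1 TPM, and a gene is called where its Benjamini-Hochberg adjusted p is under 0.05. With dDAVP 3 of 81 genes were called, all higher, among them Rpl12 and Rpl10. Of all 13494 genes tested 8.88% were called, with 2.37% higher and 6.51% lower, against 3.70% of the ribosomal protein genes, all higher. Point estimates were nonetheless mostly above 0: 79 of 81 were positive, with a median of 0.25 against -0.16 over all genes, a gap of 0.41 on the log2 scale. Without WT control replicate 1, which was low for these genes, 75 of 81 were positive, the median was 0.15 against -0.12, and the gap was 0.27. Without dDAVP replicate 1 the median was 0.16 and the gap 0.28, and the gap was 0.18 with quantile normalization and 0.22 with the length trend removed. All 3 dDAVP libraries lay above all 3 without it for 15 of 81 genes, against 7.12% of all genes, and none of the 81 lay wholly below. Against control replicates 2 and 3 alone the count was again 15, where 9.76% of all genes lay above. None of the 81 lay wholly below control replicates 2 and 3, where 32.3% of all genes did.

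Rpl12, at the base of the stalk where elongation factors bind, was 237, 259 and 275 TPM without and 349, 309 and 341 TPM with dDAVP. Its log2 change was 0.37 (SE 0.0832, limma adjusted p = 0.0378). Rpl10, which is added late in 60S assembly and lies close to the peptidyl transferase centre, was 405, 446 and 427 TPM against 522, 514 and 538 TPM. It changed by 0.30 (SE 0.0636, limma adjusted p = 0.0337). The groups did not overlap for either gene.

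The 3 calls were fragile. Without dDAVP replicate 2, 9 genes were called (11.1%, against 15.2% of all genes), and without any other of the 6 libraries none was (5 to 26 at an unadjusted p under 0.05 by limma). Scaling by median ratios left 2, where 6.68% of all genes were called. That scaling moved the median of all genes by 0.16, and the median of the 81 genes to 0.42. Among other genes in the same comparison the median change was 0.04 at 600 to under 1000 bases and -0.23 at 2000 bases or more, so length classes differed here too. With the length trend removed from each library, 8 were called, all higher (among them Rpl12, Rpl10, Rpl4, Rplp0, Rps2, Rps4x and Rpl27a), and the median of the 81 was 0.22. The 8 are 9.88% of the 81, about the 8.98% of all genes called in the same fit.

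Related lists showed few calls with dDAVP. Rack1, a scaffold on the small subunit, rose by 0.31 (limma adjusted p = 0.0393), while Fau, whose product is cut to the ribosomal protein eS30, changed by 0.25 without a call (0.11 without WT control replicate 1). The call of Rack1 was lost without that library, at 0.29 (limma adjusted p = 0.109). Of 21 translation factors and other TOP mRNAs only Eef1g, a subunit of elongation factor 1, was called (0.27, higher), and its limma adjusted p was 0.108 without that library. None of 47 ribosome biogenesis factors was called by limma (9 at an unadjusted p under 0.05), nor under median-ratio or quantile scaling, while 2 were called higher with the length trend removed. Among 26 genes of mTORC1, Larp1 and MYC control, 3 were called lower (11.5%, against 6.51% of all genes): Mxd3 (-0.81), Mycn (-0.55) and Mxi1 (-0.42), and these calls were lost under median-ratio and quantile scaling. Without WT control replicate 1, Mxd3 kept its call and Mycn and Mxi1 did not (limma adjusted p = 0.134 and 0.126). Mtor, Larp1 and Myc changed by -0.33, -0.25 and -0.28, none called.

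Between the fractions of the reporter clones, 9 of 81 genes were called, in a model with the clone as a term: Rpl3 was higher in GFP-positive cells and 8 were lower (Rplp0, Rpl5, Rpl6, Rps27l, Rpl38, Rpl27, Rpl9 and Rpl29). Among all 13113 genes tested 35.3% were called (12.1% higher, 23.2% lower), against 11.1% of the ribosomal protein genes. That difference was not tested. Of the 9, 8 belong to the large subunit and 1, Rps27l, to the small. The median change was -0.10, against -0.06 over all genes. The mean of the GFP-positive libraries was lower in all 4 clones for 15 of 81 genes and higher in all 4 for 1, Rpl3, against 27.2% and 16.2% of all genes. Without C50 GFP-negative replicate 1 these counts were 14 and 17, against 36.4% and 16.2% of all genes.

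Rplp0 anchors the P stalk, the arm of the large subunit that holds Rplp1 and Rplp2. In GFP-negative libraries it was 856 and 834 TPM in C1, 821 and 800 in C11, 879 and 835 in C43, and 1119 and 785 in C50. In GFP-positive libraries it was 557 and 587, 742 and 705, 555 and 596, and 570 and 591 TPM. The fractions did not overlap within any clone, and C11 had the smallest gap. The log2 change was -0.50 (SE 0.0801, limma adjusted p = 0.000234), and -0.43 without C50 GFP-negative replicate 1. It was also the single call within C1 (-0.56, limma adjusted p = 0.0227) and within C43 (-0.57, limma adjusted p = 0.0117). Under median-ratio scaling neither held, at -0.48 (limma adjusted p = 0.262) and -0.39 (limma adjusted p = 0.289), and in C1 the limma adjusted p was 0.0542 without the trend, 0.0764 without the filter and 0.0517 with the length trend removed. Its stalk partners Rplp1 and Rplp2 were at -0.10 and -0.17, not called, and at 0.08 and -0.00496 without C50 GFP-negative replicate 1.

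Rpl5, which carries the 5S ribosomal RNA, was 117 and 110 TPM in GFP-negative C1 cells, 88.9 and 97.3 in C11, 111 and 107 in C43, and 150 and 93.0 in C50. In GFP-positive cells it was 91.3 and 72.6, 73.0 and 83.5, 91.7 and 82.8, and 72.6 and 72.5 TPM, below the GFP-negative libraries of the same clone throughout. The change was -0.44 (SE 0.0969, limma adjusted p = 0.00276), and -0.35 without C50 GFP-negative replicate 1. Rpl11, its partner in the 5S particle, was at -0.20 without a call (limma adjusted p = 0.203), and at -0.08 without that library. Rpl6, a large-subunit protein, fell by 0.43 on the log2 scale (SE 0.0921, limma adjusted p = 0.00228), from 315 and 304 to 252 and 233 TPM in C1, from 266 and 259 to 239 and 220 in C11, from 293 and 284 to 216 and 221 in C43, and from 432 and 271 to 200 and 204 in C50. For Rpl6 too the fractions were separate in every clone, and the change was -0.33 without C50 GFP-negative replicate 1.

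Rpl38, a small large-subunit protein known for its effect on the translation of Hox mRNAs, was 471 and 432 TPM in GFP-negative and 411 and 389 TPM in GFP-positive C1 cells, 512 and 430 against 431 and 398 in C11, 542 and 648 against 416 and 453 in C43, and 1025 and 491 against 468 and 436 in C50. The fractions overlapped in C11 alone, and the change was -0.36 (SE 0.124, limma adjusted p = 0.0336). Rpl27 changed by -0.33, Rpl9, near the base of the stalk, by -0.30, and Rpl29, a protein found only in eukaryotic ribosomes, by -0.27. All 4 were smaller in size, at -0.24, -0.22, -0.21 and -0.19, without C50 GFP-negative replicate 1, and kept their calls there. Under median-ratio scaling none of the 4 was called. Rpl21, just outside the threshold, was at -0.29 (limma adjusted p = 0.0501).

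Rpl3, which reaches towards the peptidyl transferase centre, went the other way. It was 354 and 327 TPM in GFP-negative C1 cells and 422 and 417 TPM in GFP-positive ones. In C43 it was 386 and 359 against 463 and 447 TPM, and in C50 418 and 386 against 430 and 492 TPM. C11 overlapped, at 354 and 404 against 430 and 398 TPM. The log2 change was 0.23 (SE 0.0516, limma adjusted p = 0.00311), 0.24 without C50 GFP-negative replicate 1, and 0.31 under median-ratio scaling.

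**Figure D4:**
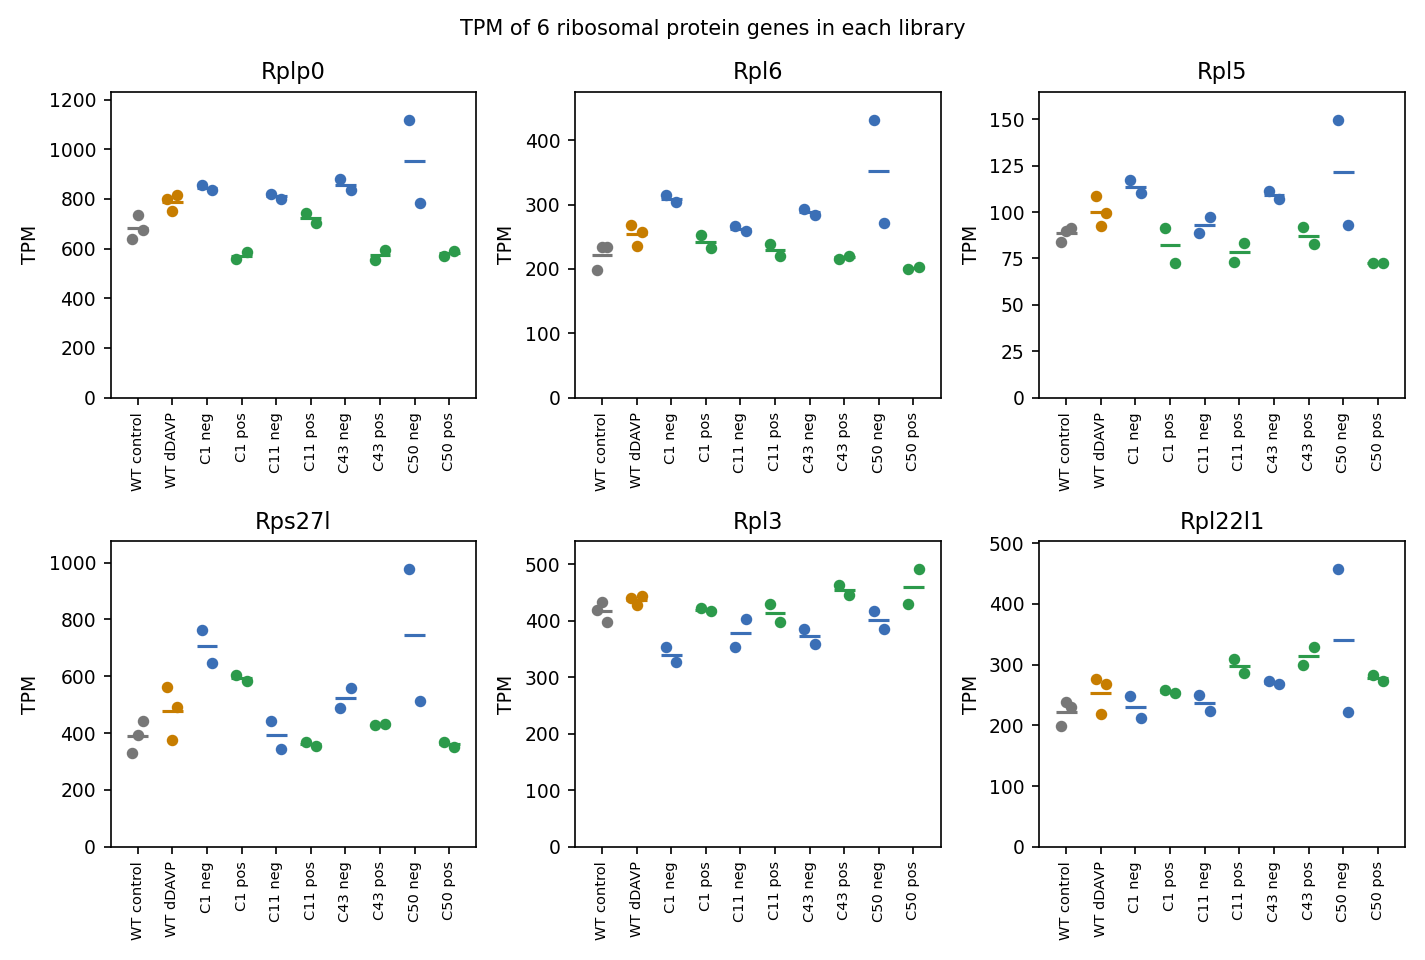
TPM (vertical axes, from 0) of Rplp0, Rpl6, Rpl5, Rps27l, Rpl3 and Rpl22l1 in each of 22 libraries by group (horizontal axes; neg and pos are the GFP fractions). Points are libraries and bars group means; the first 3 genes are lower in GFP-positive libraries of every clone, as Rplp0 at 557 and 587 TPM against 856 and 834 in C1, and the top point of C50 neg is replicate 1.

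The library with the high ribosomal protein share weighed on this comparison. Without GFP-negative replicate 1 of C50, 18 of 81 genes were called, 7 higher and 11 lower, while 46.0% of all genes were, and the median change was -0.00496. The 9 calls above were all among the 18. The added rises were Rpl10 (0.28), Rpl22l1 (0.25), Rpl39 (0.25), Rps26 (0.20), Rps21 (0.15) and Rps28 (0.12), and the added falls Rpl21 (-0.18), Rpl26 (-0.15) and Rpl35 (-0.14). Leaving out GFP-positive replicate 1 or 2 of C50 left 4 and 5 called, against 32.4% and 31.8% of all genes. Under median-ratio scaling only Rplp0 and Rpl3 were called, against 35.7% of all genes, at -0.42 and 0.31. Under that scaling the other 7 kept their sign, for example Rpl6 at -0.35 (limma adjusted p = 0.0667) and Rpl5 at -0.36 (limma adjusted p = 0.0576).

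**Figure D5:**
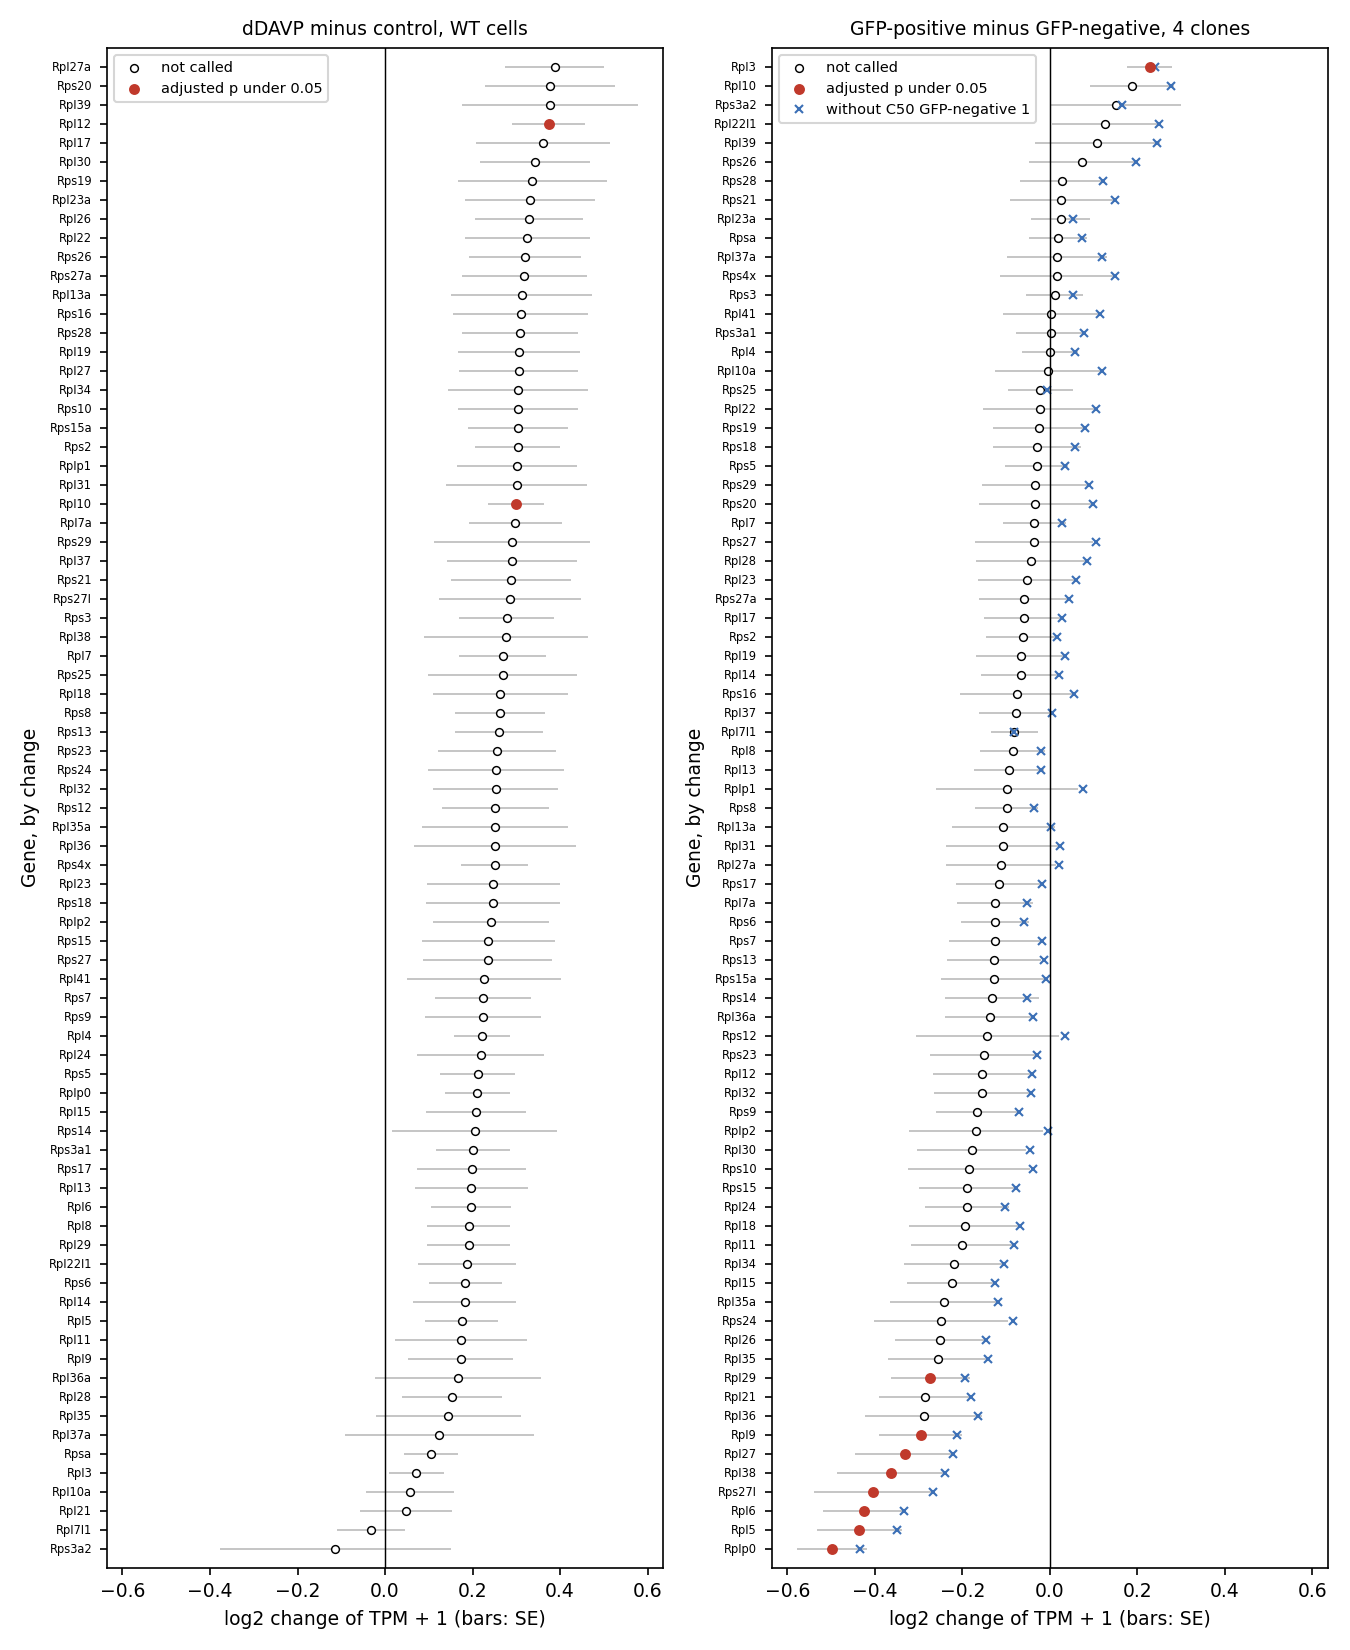
Log2 change of TPM + 1 (horizontal axes) for each of 79 of the 81 genes, ordered by change, with dDAVP in WT cells (left, 6 libraries) and for GFP-positive minus GFP-negative cells of 4 clones (right, 16 libraries). Bars are standard errors, filled points are called and crosses (right) are values without C50 GFP-negative replicate 1; all but 2 points, Rpl7l1 and Rps3a2, lie above 0 on the left, while on the right 1 called gene lies above 0 and 8 lie below.

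Within single clones, where 2 libraries a group share the spread of all 16, C1 and C43 each had 1 call (Rplp0) and C11 none (4, 5 and 0 genes at an unadjusted p under 0.05). The shares over all genes were 7.22% in C1, 7.94% in C11 and 16.3% in C43. In C50 19 of 81 were called, all lower, against 26.6% of all genes (12.8% higher, 13.8% lower), with a median of -0.46. Without GFP-negative replicate 1, 5 remained called in C50, Rplp0, Rps27l, Rpl24, Rpl27 and Rpl6, against 23.7% of all genes, and the median over the 81 was -0.04. Leaving out GFP-negative replicate 2 instead called 74 of 81, in a fit that called 52.2% of all genes, and the 4 libraries of C50 fitted alone called 0 by limma (4 at an unadjusted p under 0.05) and 0.169% of all genes. Leaving out either GFP-negative C50 library also raised the counts of the other clones, through the shared spread, to 5 in C1, 2 in C11 and 10 in C43, while the shares of all genes without replicate 1 rose to 15.9%, 17.7% and 29.6%. Leaving out 1 GFP-positive library of C50 lowered its own count to 3 and 4, against 14.4% and 13.7% of all genes.

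The test of whether the GFP difference varied between clones called none of the 81 genes by limma (2 at an unadjusted p under 0.05), against 0.869% of all genes. The lowest p was that of Rpl24, on the surface of the large subunit near the small one, whose difference was -0.64 in C50 and, in clones C1, C11 and C43, -0.04, 0.02 and -0.10 (limma adjusted p = 0.303). Rpl7 came next, with -0.01, 0.14, 0.07 and, for C50 as the last, -0.34 (limma adjusted p = 0.379), and then Rpl7a, at -0.01, 0.07, -0.07 and -0.50 (limma adjusted p = 0.407). Without C50 GFP-negative replicate 1 the C50 differences of these 3 genes were smaller in size, at -0.40, -0.15 and -0.28, and none of the 81 was called for the interaction by limma (4 at an unadjusted p under 0.05). Without C50 GFP-negative replicate 2, whose fraction is then represented by replicate 1 alone, 73 of 81 were called, in a fit that called 38.6% of all genes.

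The clones also differed from each other. With the fraction as a term, 12 of 81 were called for clone, against 28.0% of all genes. Under median-ratio scaling 2 were called, Rpsa and Rpl15 (limma adjusted p = 0.0373 and 0.0242), against 29.6% of all genes, while Rpl4 and Rps12, described below, were not (0.0830 and 0.104). With any TPM above 0 as the filter 5 were called, against 6.58% of all genes, Rps12 not among them. Without C50 GFP-negative replicate 1, 57 were called, and without GFP-negative replicate 2 of C1 6, the latter against 22.7% of all genes. The 57 held all 12, and 44.8% of all genes were called in that fit. Of the 57, the highest clone mean was in C43 for 42, and the lowest in C1 for 35. That order of clones was not counted over all genes. Other genes of 2000 bases or more held 36.2% to 38.4% of TPM in C43 libraries and 39.1% to 42.3% in C1 libraries. Whether the order follows length was not tested. Rpsa, the laminin-receptor protein of the small subunit, was 424, 349, 412 and 412 TPM in C1 and 256 to 276 TPM in C11, 290 to 324 in C43 and 266 to 351 in C50 (limma adjusted p = 0.00156). All C1 values but 1 were above every library of the other clones; 349 TPM lay just under the 351 TPM of C50 GFP-negative replicate 1. WT libraries were at 277 to 315 TPM. Rpl4, a large-subunit protein lining the exit tunnel, was 949 to 1064 TPM in C1, 715 to 757 in C11, 777 to 831 in C43 and 709 to 977 in C50 (limma adjusted p = 0.00424). Its 977 TPM is GFP-negative replicate 1, and no other C50 library passed 770 TPM. Rpl15, another large-subunit protein, was 202 to 213 TPM in C1, 153 to 173 in C11, 148 to 194 in C43 and 212 to 426 in C50 (limma adjusted p = 0.00557). Its 426 TPM is GFP-negative replicate 1, and the C50 mean without that library was 233 TPM. C1 had the highest mean for Rpsa and Rpl4 and the lowest for Rps12 (named after its values were seen), at 281 to 327 TPM, below the 417 to 1128 TPM of the other clones (limma adjusted p = 0.0429).

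Among the 81 genes are paralogs that resemble another ribosomal protein. Rpl22l1, which is thought to take the place of Rpl22 where Rpl22 is scarce, was the more abundant of the pair in every library, at 267 against 173 TPM on average. The ratio ran from 1.36 to 1.75. By group it was 1.60 ± 0.0737 (SD, n = 3) in WT cells without dDAVP and 1.45 ± 0.0499 with it. In GFP-negative cells it was 1.46 ± 0.0202, 1.63 ± 0.102, 1.42 ± 0.0826 and 1.43 ± 0.0522 (SD, n = 2) in C1, C11, C43 and C50, and in GFP-positive cells 1.71 ± 0.0531, 1.70 ± 0.00467, 1.61 ± 0.198 and 1.57 ± 0.0630. These ratios were not tested.

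Rps27l, a paralog of Rps27 that p53 induces, averaged 492 TPM, and Rps27 was 5.25 times higher. It was 764 and 648 TPM in GFP-negative and 606 and 585 TPM in GFP-positive C1 cells, 443 and 345 against 367 and 354 in C11, 489 and 560 against 428 and 431 in C43, and 977 and 514 against 370 and 351 in C50. The fractions overlapped in C11 alone. The log2 change was -0.40 (SE 0.136, limma adjusted p = 0.0312). It was -0.27 without C50 GFP-negative replicate 1 (limma adjusted p = 0.00417) and -0.32 without a call (limma adjusted p = 0.194) under median-ratio scaling. Rps27 was at -0.04 over all 16 libraries and at 0.11 without C50 GFP-negative replicate 1, not called in either. Per Rps27, C1 held the most, with a ratio of 0.337 ± 0.00538 in GFP-negative and 0.272 ± 0.00430 in GFP-positive cells (SD, n = 2), and WT cells 0.160 ± 0.00985 without dDAVP and 0.166 ± 0.00466 with it (SD, n = 3). Rpl7l1, a factor of large-subunit assembly related to Rpl7, stayed between 80.5 and 101 TPM, the narrowest spread of the 81. It changed by -0.03 with dDAVP and by -0.08 between fractions, neither called.

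Genes whose products build ribosomes were called between the fractions as well. Of 47 ribosome biogenesis factors 32 (68.1%) were called lower in GFP-positive cells and none higher, with a median of -0.37, where 23.2% of all genes were called lower. Rrs1 (-0.63), Mrto4 (-0.61) and Nip7 (-0.61), all of large-subunit maturation, had the largest falls of the list. Counts were 38 lower without C50 GFP-negative replicate 1, 26 lower and 1 higher under median-ratio scaling, and 29 lower and 2 higher with the length trend removed, in fits that called 46.0%, 35.7% and 42.1% of all genes in either direction. Of 14 RNA polymerase I genes 3 were lower (Polr1f at -0.36, Polr1d at -0.27 and Taf1d at -0.20) and none higher. That is 21.4% of the list, about the 23.2% of all genes called lower. Under median-ratio scaling 0 were lower and 1 higher. Among 11 chaperones and importers of ribosomal proteins 4 were lower (36.4%), led by Grwd1 (-0.46), which escorts Rpl3.

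The counts of the next lists are to be read against all genes, of which 12.1% were called higher and 23.2% lower. Among 21 translation factors and other TOP mRNAs, 5 were lower (23.8%), among them Hnrnpa1 (-0.36) and Npm1 (-0.24), and 2 higher (9.52%), Eif4a2 (0.46) and Eef1a1 (0.30), about the shares of all genes. Of the 9 snoRNA host RNAs with a TOP start, 2 were lower (22.2%), Snhg5 (-0.37) and Snhg15 (-0.27). The calls of Npm1 and Snhg15 were lost under median-ratio scaling. Of 26 genes of mTORC1, Larp1 and MYC control 3 were lower and 1 higher (11.5% and 3.85%). Mycn (-1.66), Mxd3 (-1.43) and Eif4ebp1 (-0.94), whose product restrains cap-dependent translation, were lower, and Deptor (0.84), an inhibitor of mTOR, was higher. Under median-ratio scaling 8 of the 26 were higher and 3 lower, in a fit that called 35.7% of all genes. Myc, Mtor and Larp1 changed by -0.26, -0.18 and 0.06, none called (without C50 GFP-negative replicate 1 Larp1 was at -0.09, and Myc was called at -0.34, limma adjusted p = 0.0186). Of 22 genes of ribosome rescue and quality control 8 were lower (36.4%), as Gtpbp2 (-0.79) and Zfp598 (-0.69), a sensor of collided ribosomes, and 2 higher, Tcf25 (0.28) and Ascc3 (0.46). Fau and Rack1 were at -0.13 and -0.24, neither called (-0.03 and -0.14 without C50 GFP-negative replicate 1). The other short abundant mRNAs, set beside these genes for their length, had 14 of 26 lower (53.8%) and 2 higher, among them Tmsb10 (-1.14) and Uqcrq (-0.64), with Fth1 (0.42) and Tmsb4x (0.46) higher. Under median-ratio scaling 4 were lower and 2 higher. In bulk libraries, fewer cells with a transcript and less of it per cell cannot be told apart.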

How the data were processed

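RNA from each library was made into cDNA with the SMART-Seq HT kit and tagmented with Nextera XT, per the labels' protocols, and sequenced as paired 50-base reads. The submitters' processing notes name STAR and RSEM; their versions, the genome build and the annotation are not given in the sources used here. The authors deposited TPM values per gene. TPM divides by length and is relative within a library, so a change in other genes moves it; the table holds no counts and no depth.

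Lines sharing a symbol were summed (980 lines, none of the 81 genes). Values were tested as log2(TPM + 1) with limma 3.58.1 in R 4.3.3 (eBayes with trend, two-sided, Benjamini-Hochberg over all genes with a mean of at least 1 TPM), after a check on simulated data. WT groups were compared over 6 libraries. The 16 clone libraries were fitted with clone and fraction, and with a mean per group for single clones. Transcript lengths are the shortest APPRIS principal transcript in GENCODE M21. For genes without one, the shortest protein-coding transcript was used, then the shortest basic one, then the shortest of all. The genes and lists were chosen with earlier results of these data known. Named genes were the 5 most abundant, up to 5 called rises and falls per comparison, the 3 lowest interaction and clone p-values, the paralogs with their relatives, the 2 genes on either side of the limit, and in other lists up to 3 called rises and falls. Alternatives changed the pseudocount, filter, scaling, moderation, length trend, detection covariate and libraries. Values of some genes are not reported here.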

Additional observations from a re-analysis of the deposited data

Results flagged for a closer look

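The share of all TPM held by the 81 ribosomal protein genes was 8.32% in GFP-negative replicate 1 of C50, and its gap to the next of the 8 GFP-negative clone libraries was 0.729 of their whole range, beyond Dixon's 95% limit. The other 7 GFP-negative libraries lay between 4.23% and 5.34%. Gene by gene, the same criterion marked 60 of the 81 genes in the GFP-negative libraries, all 60 for a high value in that library, and 2 of 81 in the GFP-positive libraries. Over all 13113 genes tested it marked 13.8% in the GFP-negative libraries (3.32% for a high value in that library) and 6.36% in the GFP-positive ones, against 74.1% and 2.47% of the 81. This library was already known to be high for these genes when it was examined, so these values describe that observation and are no independent support for it. Chance marks about 1 in 20 groups, and the 60 are not independent of one another since they share the library. None of the 81 genes passed the test of a difference between clones in the GFP effect.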

How the results depend on the processing

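In brackets after each count is the share of all genes called in the same fit. Of 3 genes called with dDAVP (8.88%), 0 were called with any TPM above 0 as the filter (1.16%), without the trend in moderation (5.12%), with the replicate block (0.904%), or in the libraries with more genes detected (0.728%, chosen after seeing the data). The count was 1 with quantile normalization (6.003%) or all 22 libraries (5.96%), 8 with the length trend removed (8.98%), and 21 with genes detected as a covariate (19.96%). Leaving out single libraries gave 0 to 9 (2.31% to 15.2%). Of 9 genes called between fractions (35.3%), counts were 4 without the filter (9.24%), 2 with median-ratio scaling (35.7%), 17 with quantile normalization (38.7%), 3 with clone means as replicates (18.3%), 4 without C1 (28.7%), 4 without C43 (25.5%), 15 without C50 (40.01%), 0 in the libraries with fewer genes detected (1.96%, chosen after seeing the data; a smaller fit), and 4 to 18 leaving out single libraries (31.8% to 46.0%). The 12 clone calls (28.0%) became 5 without the filter (6.58%), 2 with median-ratio scaling (29.6%), 20 with quantile normalization (33.4%), 19 with the length trend removed (37.9%), and 6 to 57 leaving out single libraries (20.9% to 44.8%). The 19 calls within C50 (26.6%) became 5 without the filter (5.68%), 6 with median-ratio scaling (29.5%), 10 without trend (25.3%), 9 with the length trend removed (30.9%), 0 in C50 alone (0.169%), and 3 to 74 leaving out single libraries (13.7% to 52.2%). Within C1 the 1 call (7.22%) became 0 without the filter (1.51%), with median-ratio scaling (7.53%) or without trend (6.52%), and 0 to 5 leaving out libraries (2.87% to 16.03%). With the length trend removed 1 gene was called there as a rise rather than a fall (11.6%). Within C43 the 1 call (16.3%) became 0 with median-ratio scaling (15.9%), 3 with the length trend removed (21.7%), and 0 to 10 leaving out libraries (6.58% to 29.8%). C11 gave 0 to 2 (2.42% to 17.8%) and the interaction 0 to 73 (0.319% to 38.6%) leaving out libraries. The cause of these shifts was not tested.

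The block of clone and replicate number left 7 genes called between fractions (32.5% of all genes). Same-numbered WT libraries deviated with correlations of -0.208, -0.0254 and -0.109 and same-numbered clone libraries with 0.0544, 0.0151, 0.203 and 0.0825, so the numbers were not taken as pairs. None of the 3 genes called with dDAVP changed sign under the 18 alternatives run, nor any of the 9 called between fractions under 33. Of 19 results for other named genes that were not called, 8 changed sign in 43 values. With pseudogene names added, the median share over 22 libraries stayed within the spread between libraries. Depth is unknown, so counting error cannot be given, and 2 libraries a group limit the precision within clones.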
